A study of Caenorhabditis elegans with 2 samples.

Results

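The genes described here are those of small nuclear RNAs (snRNAs) in Caenorhabditis elegans, other than the sls-2 genes of the second kind of spliced leader RNA. They are all genes of biotype snRNA in the Ensembl annotation of WBcel235 (the ce11 assembly) whose name does not begin with sls-2, which leaves 111 of 129 snRNA genes and of 46890 annotated nuclear genes. ChIP-seq, which sequences the DNA that an antibody brings down from fragmented chromatin, was done with an antibody against GFP by the description labels, although the antibody label reads sea-2, on whole young adults collected at 64 hours after starvation of bleached embryos to the L1 larval stage. The animals were of strain OP586, in which the transgene wgIs586 supplies sea-2::TY1 EGFP 3xFLAG together with unc-119(+) in an unc-119 (tm4063) background. The 2 biological replicates form 1 group, no input or other precipitation was analysed here, and signal from whole animals does not tell cell types apart. A gene was counted as having a peak where the summit of a peak in the optimal list of the pooled replicates lay within 500 bp of it. That list holds candidates whose irreproducible discovery rate (IDR, low where a candidate ranks alike in the lists compared) was 0.01 or less.

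Spliceosomal snRNAs are the RNA core of the machinery that removes introns, in which the U1 RNA pairs with the 5′ splice site, the U2 RNA with the branch point, and the U5 and U6 RNAs with the exon ends and the 5′ splice site. Most animal snRNA genes are short, intronless and transcribed by RNA polymerase II from a proximal sequence element upstream of the start, while U6 genes also carry a TATA box and are transcribed by RNA polymerase III. Among the genes described here are those of 2 further groups of small RNAs that bind Sm proteins. They are the SL1 RNAs, which donate the leader that is trans-spliced onto many messages, from the sls-1 genes, and the SmY RNAs, from the smy genes. SEA-2 is a zinc finger protein known from the count of autosomes in sex determination.

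The annotation used here names few of these RNAs, so the genes were grouped by sequence (at least 80% identity over at least 80% of the shorter gene) and each group is called by its member with the strongest candidate. Of the 4 groups that hold most of the signal, the leading genes of 2 are printed, read 5′ to 3′ from the RefSeq sequence of WBcel235, because the letters in capitals show which class of spliceosomal RNA a group resembles. sup-6 (chrII:12944803-12944967, minus strand) carries the ACTTACCT known from the 5′ end of U1, and Y57G11C.35 (chrIV:14764848-14765034, minus strand) the GTAGTA known from the branch site recognition stretch of U2.
sup-6: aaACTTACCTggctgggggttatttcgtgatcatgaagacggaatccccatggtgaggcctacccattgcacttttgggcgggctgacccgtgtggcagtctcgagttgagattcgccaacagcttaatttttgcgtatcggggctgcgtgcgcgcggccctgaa
Y57G11C.35: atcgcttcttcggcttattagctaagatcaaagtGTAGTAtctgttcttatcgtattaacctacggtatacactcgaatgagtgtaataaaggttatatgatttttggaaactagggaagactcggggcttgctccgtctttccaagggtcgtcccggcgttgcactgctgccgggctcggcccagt

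The other 2 groups were searched for the ACAGAGA box known from U6 and the CCTTTTAC known from the loop of U5, and all these letters were chosen after the sequences were seen. On the transcribed strand ACAGAGA stood in 22 of the 23 members of the W05B2.8 family and in no other member, against 1.41% of 6610 tRNA, snoRNA and other non-coding genes of 60 to 200 bp. ACTTACCT stood in 12 of the 14 members of the sup-6 family and in no other member, against 0.0303% of those genes. GTAGTA stood in 18 of the 19 members of the Y57G11C.35 family and in 1 member outside it, against 2.30% of the other genes, and CCTTTTAC in 11 of the 12 members of the F32B5.9 family, to which F07C6.5 belongs, against 0.0756%. ATTTTTG, letters like those of the Sm protein binding site, stood in 59 members, against 4.21% of the other genes. Among them were all 19 of the Y57G11C.35 family, 13 of the sup-6 family, 11 of the F32B5.9 family and all 9 of the smy family. It stood in none of the W05B2.8 family and also in none of the 12 sls-1 genes, although SL1 RNAs bind Sm proteins.

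The 100 bp upstream of 6 genes with a peak and of F07C6.5, R07E5.16 and C28A5.7, which had none in the optimal list, are shown. The reason is that short elements recur among them, though none is in every stretch. In capitals are TATATAA and an element made of CC followed, after 7 bases, by TGTC, both found on the gene's strand. The stretches are W05B2.8 chrIII:10989579-10989678 (plus), K09C6.12 chrV:858991-859090 (plus), F54D8.7 chrIII:5080899-5080998 (minus), sup-6 chrII:12944968-12945067 (minus), sup-39 chrII:6968559-6968658 (minus), Y57G11C.35 chrIV:14765035-14765134 (minus), F07C6.5 chrIV:12795484-12795583 (plus), R07E5.16 chrIII:4414085-4414184 (plus) and C28A5.7 chrIII:4426956-4427055 (minus), and each ends at the base before the gene.
W05B2.8: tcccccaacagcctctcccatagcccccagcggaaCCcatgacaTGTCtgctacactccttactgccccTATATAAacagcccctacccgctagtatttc
K09C6.12: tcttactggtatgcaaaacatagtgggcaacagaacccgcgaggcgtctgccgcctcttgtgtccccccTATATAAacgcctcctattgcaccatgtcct
F54D8.7: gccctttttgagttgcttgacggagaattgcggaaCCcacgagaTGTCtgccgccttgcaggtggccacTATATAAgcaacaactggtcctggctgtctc
sup-6: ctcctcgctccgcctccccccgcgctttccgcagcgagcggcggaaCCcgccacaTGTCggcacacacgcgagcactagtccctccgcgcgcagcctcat
sup-39: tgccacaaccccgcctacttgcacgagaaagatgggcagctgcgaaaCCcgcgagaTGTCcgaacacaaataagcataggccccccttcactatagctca
Y57G11C.35: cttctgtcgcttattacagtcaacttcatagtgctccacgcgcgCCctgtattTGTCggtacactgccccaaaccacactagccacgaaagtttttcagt
F07C6.5: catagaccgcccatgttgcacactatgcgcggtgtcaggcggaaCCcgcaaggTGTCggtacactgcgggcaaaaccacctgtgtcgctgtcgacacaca
R07E5.16: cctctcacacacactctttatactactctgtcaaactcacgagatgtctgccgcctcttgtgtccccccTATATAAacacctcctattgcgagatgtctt
C28A5.7: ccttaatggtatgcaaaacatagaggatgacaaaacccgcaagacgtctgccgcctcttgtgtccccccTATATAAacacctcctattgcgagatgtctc

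Of the 111 genes, 8 (7.21%) had a peak of the optimal list within 500 bp, where 1.45% of all annotated nuclear genes did. They were W05B2.8, K09C6.12 and F54D8.7 of the W05B2.8 family, sup-6, sup-39, mir-1831 and H27M09.6 of the sup-6 family, and Y57G11C.35. The 8 genes shared 7 summits, since mir-1831, a 22 bp gene that the annotation lists as snRNA under a microRNA name, lies inside sup-39. Of the 109 pooled candidate summits within 500 bp of a member these 7 (6.42%) were in the optimal list, where 0.549% of all 82563 pooled candidates were. All 8 genes had a peak in the conservative list too, which holds 0.522% of the candidates, and that list added C28A5.7, for 9 genes.

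The signal value, the peak caller's own strength of a peak, had a median of 30.8 over the 109 candidates near members and of 24.9 over all pooled candidates. Among the 109, 13 (11.9%) were in the strongest 1% of the pooled list and 32 (29.4%) in the strongest 5%. A pooled candidate lay near 83 members and none near the other 28, of which 14 had one in a replicate's own list. The strongest candidate of each of the 83 genes had a median signal of 40.7, at the 85.1 percentile of the pooled list, and 68 of the 83 stood above the median of all candidates. These best values are the highest near each gene, while the pooled list counts every candidate singly, so their percentiles and the list's median are a scale for the values and not a test. The 83 genes had 76 different strongest summits, because 13 genes that lie close together shared 6 of them.

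**Figure D1:**
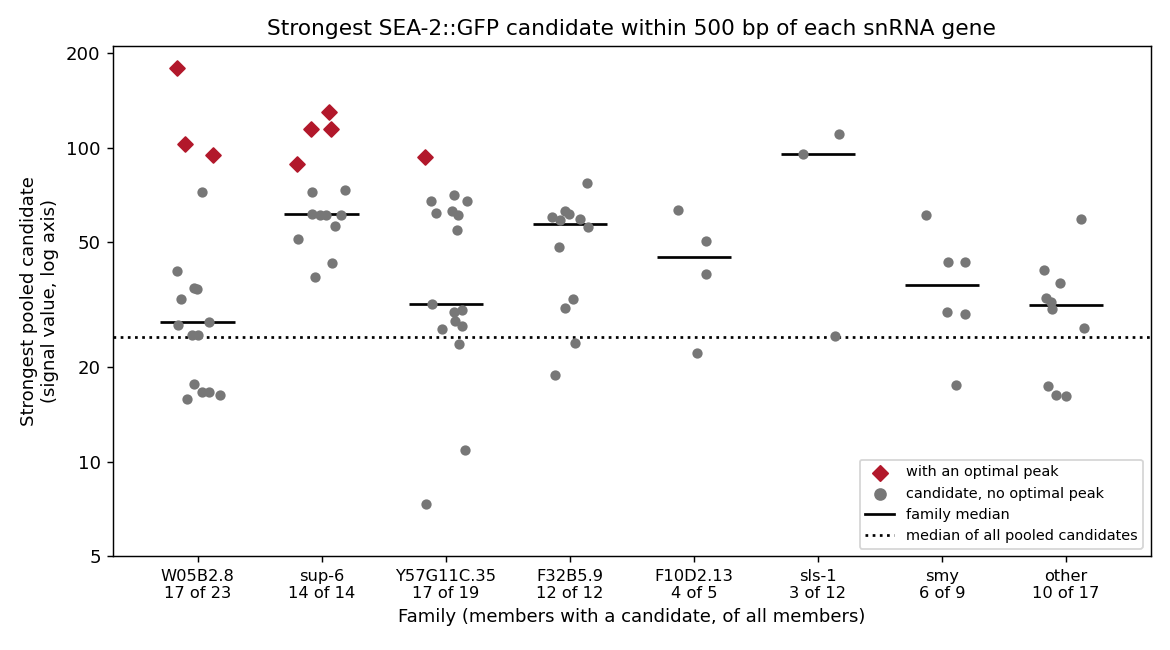
Signal of the strongest pooled candidate within 500 bp of each snRNA gene (vertical log axis), by family. Red diamonds are the 8 genes with an optimal peak, grey circles the genes with a candidate only, bars the family medians, and the dotted line the median of all pooled candidates (24.9). Under each family stands how many of its genes had a candidate, and every gene with an optimal peak is in 1 of 3 families.

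The W05B2.8 family has 23 genes of 93 to 108 bp with 8 distinct sequences, and its peaks included the strongest of all members. W05B2.8 had a pooled signal of 179.8, rank 49 of the pooled list, with 112.5 in replicate 1 and 60.8 in replicate 2. It was the only member with a peak in the thresholded lists of both replicates, which hold 0.326% of the candidates of replicate 1 and 0.236% of those of replicate 2. K09C6.12 had a pooled signal of 103.1, with 68.1 in replicate 1 and 34.1 in replicate 2, and passed the threshold of replicate 1 alone. F54D8.7 had 94.6, with 45.9 in replicate 1 and 52.1 in replicate 2, and passed in neither replicate by itself. C28A5.7, of the conservative list, had 72.4, with 42.7 in replicate 1 and 40.9 in replicate 2. Its IDR was 0.00517 in the ranked list behind the conservative list and 0.030 in the list behind the optimal one, so the threshold of 0.01 falls between them.

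Most of this family was much weaker: 17 of its 23 genes had a candidate, with a median signal of 27.9 and a lowest of 15.8. K09C6.12 and C28A5.7 have the same 102 bp sequence as W05B2.8, and F54D8.7 lacks 1 base of it. In all, 14 members have the sequence of W05B2.8, which occurs 17 times in the nuclear genome. Of these 14, 9 had a candidate, with signals of 17.7 to 179.8 and a median of 27.9, and 5 had none. R07E5.16, named here after its values were seen as an identical copy on the same chromosome as W05B2.8, had a pooled signal of 27.9 and 23.3 in replicate 2, with no candidate in replicate 1. The 6 copies K09B11.11 to K09B11.16, which lie together, had either no pooled candidate or signals of 17.7 to 25.4. Y9C9A.111, another identical copy picked out after its values were seen, had no pooled candidate and none in replicate 2, but one of 46.2 in replicate 1. Genes with the same sequence thus covered nearly the whole range of the family. Whether the authors' alignment could place reads within identical copies is not given in the sources used here. In the 201 bp around the summit, the share of 31-base words that recur elsewhere in the genome was 45.0% at W05B2.8, 49.7% at K09C6.12 and 35.7% at F54D8.7, against 60.8% at C28A5.7 and 50.9% at R07E5.16, so the summit windows of all 5 also hold unique sequence. The part of repeated sequence in these values was not tested.

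In the sup-6 family (14 genes of up to 170 bp, each of its own sequence) every gene had a candidate, and 4 had an optimal peak. The genes sup-6 and sup-39 are known as U1 snRNA genes from alleles that suppress mutations of splice sites, and they match at 161 of 164 aligned bases. sup-6 had a pooled signal of 130.1, with 94.7 in replicate 1, where it passed the threshold, and 40.5 in replicate 2. sup-39, with mir-1831 inside it, had 114.3, with 61.2 in replicate 1 and 46.0 in replicate 2, and passed in neither. H27M09.6 had 88.6, with 57.7 in replicate 1 and 38.96 in replicate 2, and also passed in neither. Below these followed F08H9.11 at 73.4 (37.2 in replicate 1 and 39.5 in replicate 2) and T08G5.11 at 72.4 (27.4 and 35.6). The weakest gene of the family, C27H5.11, still had 38.6, and the median of the family was 61.3, at the 97.8 percentile of the pooled list. In the replicates' own lists the median percentile of the 14 genes was 97.4 in replicate 1 and 88.0 in replicate 2. The candidates were not all separate, since T27E4.10, T27E4.12 and T27E4.22 shared 1 summit of signal 61.0. Nor are the 14 genes all separate loci. T27E4.12 and T27E4.22 overlap on the same strand, and mir-1831 is inside sup-39. Both loci therefore enter the family's counts and medians more than once.

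The Y57G11C.35 family has 19 genes of 185 to 187 bp, of which 17 had a candidate and 1 an optimal peak. Y57G11C.35 had a pooled signal of 93.6, with 54.5 in replicate 1 and 38.1 in replicate 2, and passed the threshold of neither. Next were Y54G9A.8 at 70.4 (34.1 in replicate 1 and 31.3 in replicate 2) and the neighbours F56H6.14 and F56H6.16, which shared a pooled summit of 67.5 that lay 215 bp upstream of F56H6.14. The family's signals fell into a wide range, from 7.33 to 93.6 with a median of 31.8, and 8 of its genes were in the strongest 5% of the pooled list.

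The F32B5.9 family of 12 genes of 117 to 126 bp had candidates at all 12 genes and an optimal peak at none. F32B5.9 came nearest, with a pooled signal of 77.1 from 51.6 in replicate 1 and 21.2 in replicate 2. Its rank was 357 in replicate 1 but 12536 in replicate 2, and its IDR was 0.0803, above the threshold. The median of the family, 57.3 or the 96.8 percentile, was close to that of the sup-6 family, and 7 of the 12 genes were in the strongest 5%. In replicate 1 only 8 of the 12 genes had a candidate, at a median percentile of 91.1, and in replicate 2 11 had one, at 91.5. Some strongest pooled summits lay well beyond the gene, as at ZK897.3 (460 bp from the start) and ZK897.2 (390 bp). Others lay close to it, as at C53B4.9 (8 bp upstream). The 5 genes of the F10D2.13 family (142 to 144 bp) had candidates at 4 genes, of 22.1 to 63.2, and no optimal peak.

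Neither the smy genes nor the sls-1 genes had an optimal peak. Of the 9 smy genes grouped by sequence, 6 had a candidate, with signals of 17.5 to 60.8 and a median of 36.6. The strongest, at smy-1, had its summit 347 bp from the gene start, beyond the 77 bp gene. The 12 sls-1 genes, which have only 2 distinct sequences, had a pooled candidate at 3. sls-1.5 had a pooled signal of 110.8, with 66.9 in replicate 1 and 52.2 in replicate 2, and sls-1.9 had 95.5, with 43.8 in replicate 1 and 56.3 in replicate 2. Both were stronger than the weakest 3 summits of the optimal list near members, and their IDRs of 0.000818 and 0.00229 met the threshold, yet neither is in the optimal or the conservative list. Their summits lay upstream, 338 bp from sls-1.5 and 178 bp from sls-1.9, the second within 500 bp of the 5S ribosomal RNA gene rrn-4.2. All 31-base words around the summit at sls-1.9 recur elsewhere in the genome, and 46.8% of those at sls-1.5 do. The other 17 members, in groups of at most 4 genes or alone, smy-8 among them, had a candidate at 10 and an optimal peak at none.

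The replicates ranked the genes with peaks near the top of both lists. At the 8 genes the strongest candidate stood at the 98.8 percentile or above in replicate 1 and at the 97.4 percentile or above in replicate 2. At the other 103 genes the median was 82.6 in replicate 1 (61 genes with a candidate) and 81.5 in replicate 2 (65 genes). Since the optimal list was chosen on how ranks repeat, this is part of how the 8 came to be listed. The summits of the replicates lay 5 to 89 bp apart at the 8 genes, with a median of 21.5 bp in which sup-39 and mir-1831 count the same pair of summits. They lay 2 to 743 bp apart at the 46 other genes with a candidate in both, with a median of 70 bp. Over 50 different pairs of summits Spearman's rho between the replicates' signals was 0.61, and over the 43 pairs without an optimal peak it was 0.43. Genes close together share candidates, and each point is the highest value near its gene, so these are descriptions of the lists. Signal values of replicate 1 were higher than those of replicate 2 at 7 of the 8 genes, as at the median of all candidates (18.97 in replicate 1 and 16.3 in replicate 2), and the scale of the 2 lists is not known to be common. Of the 8 genes, 3 had a thresholded peak in replicate 1, 1 of them also in replicate 2, and 5 in neither.

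**Figure D2:**
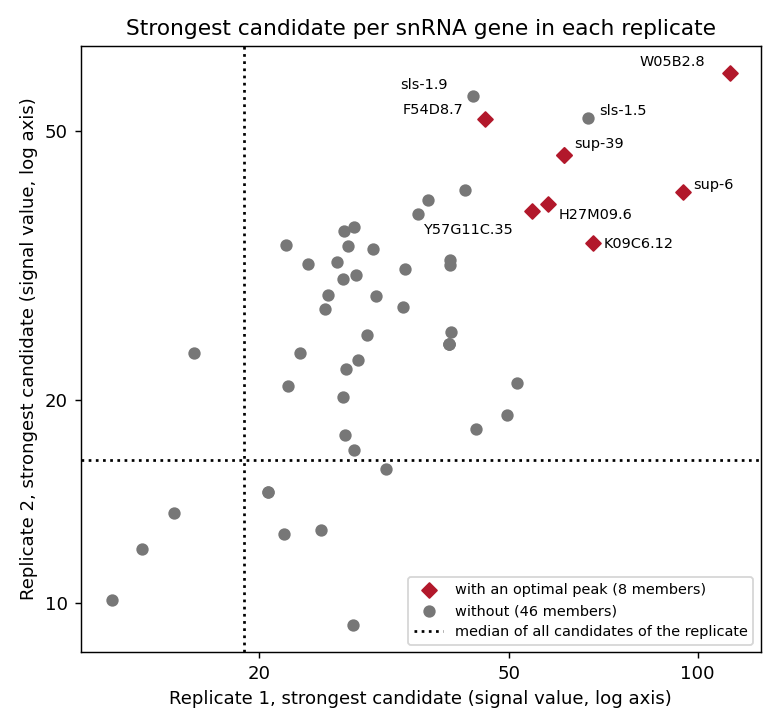
Signal of the strongest candidate within 500 bp of each snRNA gene in replicate 1 (horizontal) and replicate 2 (vertical), both on log axes, for the genes with a candidate in both. Red diamonds are the 8 genes with an optimal peak (sup-39 and mir-1831 coincide), grey circles the 46 others, and dotted lines the median of all candidates of each replicate (18.97 and 16.3). The red points lie in the upper right part, together with the grey points of sls-1.5 and sls-1.9.

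All 7 optimal summits lay on or at the edge of the gene. Of them, 6 were inside an snRNA gene and 1, at F54D8.7, was 16 bp upstream. Measured from the gene start they lay at 9 bp (K09C6.12) and 13 bp (W05B2.8) in the W05B2.8 family, at 92 bp (sup-39), 103 bp (H27M09.6) and 131 bp (sup-6) in the sup-6 family and at 164 bp in Y57G11C.35. Their median was 92 bp, with an SD of 68.9 bp over the 7 summits. In the conservative list, which adds the summit of C28A5.7 at 2 bp, the median was 52.5 bp. In these pooled lists the summits of the W05B2.8 family fell within 16 bp of the start on either side, while the other 4 fell past the midpoint of longer genes. The replicates did not hold this split throughout. The strongest candidate lay at 132 bp in sup-6 and 104 bp in H27M09.6 in replicate 1, but at 82 and 15 bp in replicate 2, not past the midpoint. At sup-39 and Y57G11C.35 it was past the midpoint in both. Among W05B2.8 family genes in neither list, pooled candidates lay for example at 1 bp (K09B11.13), 69 bp (R07E5.16) and 301 bp (F54C8.8). The 102 candidates near members that are not in the optimal list spread over positions of -477 to 644 bp relative to the start, with 34 upstream, 29 (28.4%) inside and 39 beyond the gene end. Within 100 bp of a gene lay all 7 of the optimal summits and 57 (55.9%) of the other 102. Among those 102, signal was higher inside genes (median 44.4) than upstream (30.3) or beyond the end (17.4). The rule fixes only that a summit is within 500 bp, not where in that window it lies. No optimal summit was farther than 64 bp from a member it was counted for, and the farthest were the 16 bp of F54D8.7 and the 64 bp of mir-1831, which is inside sup-39. The nearest optimal summits beyond 500 bp were 6109 bp from B0205.15, 10266 bp from T08G5.11 and 12107 bp from C27H5.11, so no gene is near that limit.

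**Figure D3:**
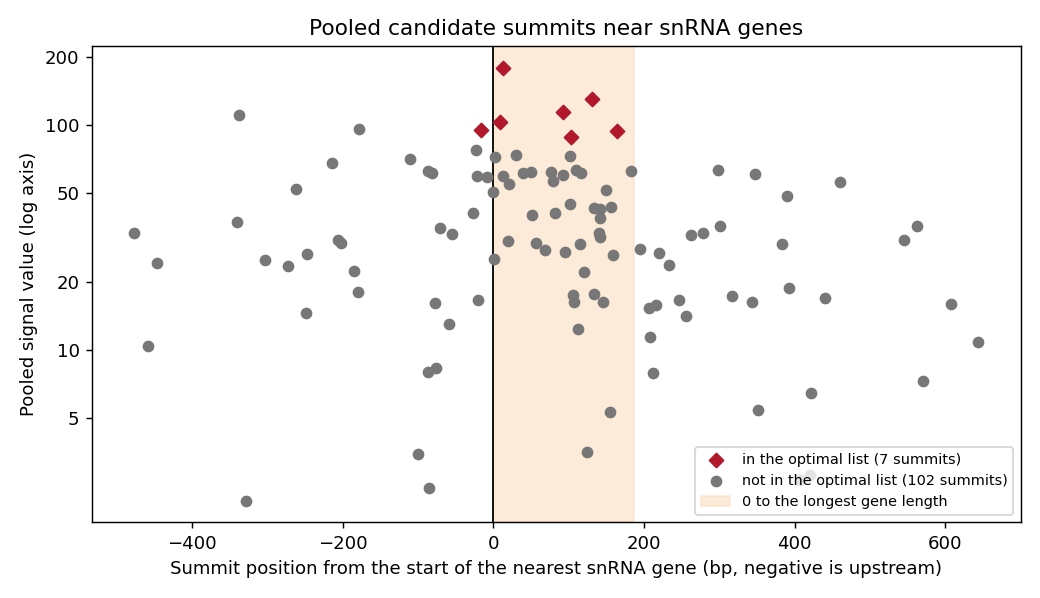
Position of each of the 109 pooled candidate summits relative to the start of the nearest snRNA gene (horizontal, bp, negative upstream) and its signal (vertical, log axis). Red diamonds are the 7 summits of the optimal list, at -16 to 164 bp, and grey circles the other 102, at -477 to 644 bp. The shaded band runs from the start to the length of the longest gene.

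The peaks could not always be assigned to the snRNA gene alone. Of the 8 genes 6 lie within a protein-coding gene on the same strand: W05B2.8 in dhc-4, sup-6 in F58G1.7, sup-39 and mir-1831 in C15F1.5, K09C6.12 in K09C6.2 and Y57G11C.35 in Y57G11C.5. Of the other 103 genes, 50 lie within a protein-coding gene, 28 of them on the same strand. At F54D8.7 the nearest edge of alh-1, on the opposite strand, is 253 bp from the summit, and at H27M09.6 syp-4 lies 311 bp and H27M09.5 241 bp away. Non-coding RNA genes on the opposite strand overlap 4 of the 8 genes and 30 of the other 103. No tRNA, snoRNA or ribosomal RNA gene lay within 500 bp of any of the 7 summits. When each summit was given only to the nearest annotated gene, 7 of the 8 members kept one. However, the 6 summits inside an snRNA gene also lay inside another annotated gene, a tie at distance 0. The count therefore does not assign those summits to the snRNA gene. The q values that the authors deposited for these peaks ran from 0.0374 at H27M09.6, the weakest by signal, to 0.0928 at W05B2.8, the strongest. The next strongest, sup-6 and sup-39, had 0.0605 and 0.0519, so q mostly rose with the signal by which peaks are ranked here.

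The upstream element of CC, 7 bases and TGTC, in either orientation, stood within 100 bp of the start in 6 of the 8 genes with an optimal peak and in 42 of the other 103. Over all members this was 48 of 111 (43.2%), against 1.91% of 46757 genes of other biotypes. In 47 members it was on the gene's strand, and in 44 of these it began 53 to 69 bp upstream of the start, with a median of 56 bp. Its place differed by family: 64 to 65 bp upstream in the W05B2.8 family, a median of 54 bp in the sup-6 family and of 56 bp in both the Y57G11C.35 and F32B5.9 families. The letters of the element were picked after the sequences were seen, and it lies where a proximal sequence element is known in snRNA genes. None of the 12 sls-1 genes and none of the 9 genes of the smy family had this exact spelling, and smy-8, which stands apart from that family by sequence, had it 25 bp upstream. K09C6.12 and C28A5.7 differ from it within the last 4 letters, as the sequences printed above show. TATATAA stood, on the gene's strand, in 15 of the 23 genes of the W05B2.8 family, in each of them 30 or 31 bp upstream, and in 3 members outside it. Counted on both strands, it was present in 18 of the 111 members (16.2%) and in 3.49% of the other genes. All 3 W05B2.8 family genes with an optimal peak had it, among 15 genes with it and 8 without.

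Genes with the element had stronger candidates over the whole set, but the families differ in both. The 40 genes with the element and a candidate had a median strongest signal of 60.5, and the 43 without it 33.2. An optimal peak stood at 6 of the 48 genes with the element (12.5%) and at 2 of the 63 without (3.17%). The 6 include both sup-39 and mir-1831, which share the summit and the element. In the replicates' own lists the median percentiles were 89.2 with and 69.5 without in replicate 1, and 84.9 with and 82.0 without in replicate 2. Within the W05B2.8 family the median was 38.1 in 6 genes with the element and 25.4 in 11 without. Within the F32B5.9 family it was 60.1 in 7 genes and 56.0 in 5. Within the sup-6 family the order was the other way, with 61.0 in 10 genes with the element and 67.5 in 4 without. Those 10 include the overlapping genes sup-39 and mir-1831, and T27E4.12 and T27E4.22. In the Y57G11C.35 family only 2 genes lacked it, at 7.33 and 23.6, against a median of 54.9 in 15 genes with it. The 8 genes with a peak had an upstream GC content of 49 to 72% with a median of 53.5%, and the other 103 genes 22 to 62% with a median of 49%. The share of these values that goes with GC content was not tested.

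**Figure D4:**
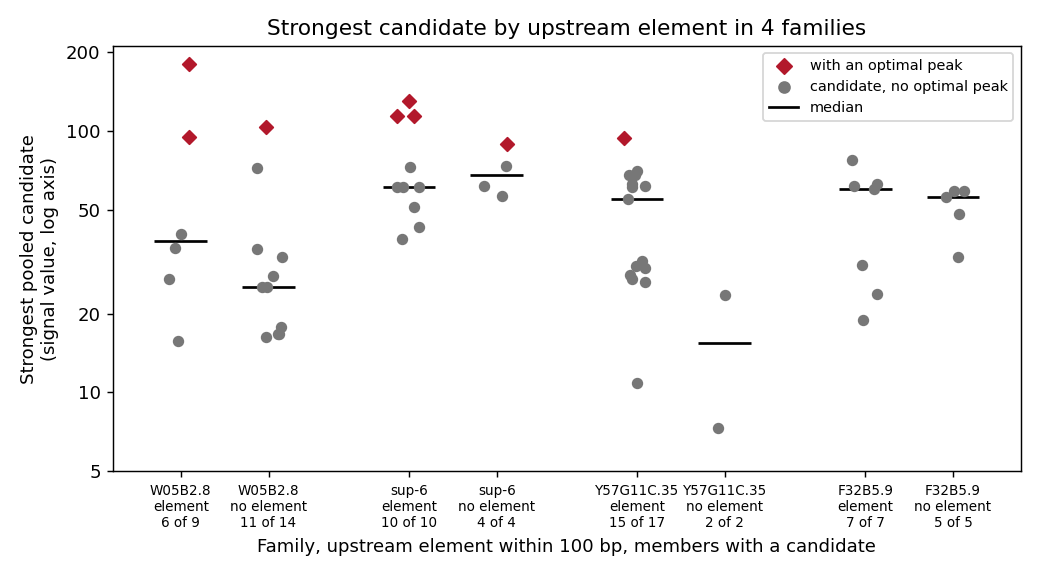
Signal of the strongest pooled candidate (vertical, log axis) for genes with and without the upstream element in 4 families, with the median as a bar. Red diamonds are genes with an optimal peak and grey circles genes with a candidate only; the median is higher with the element in 3 families and lower in the sup-6 family (61.0 against 67.5).

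Of 3 further motifs searched on both strands, CGCGCA stood upstream of 1 of the 8 genes with a peak and of 15 of the other 103, or 14.4% of all members, against 1.34% of genes of other biotypes. GAGAGA stood upstream of none of the 8 and of 8 of the 103 (7.21% of members against 6.75%), and TATAA, which is part of TATATAA, of 3 of the 8 and 29 of the 103 (28.8% against 29.3%). A match says only that these letters are in the window.

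By chromosome, 3 of the 13 members on chromosome II had an optimal peak, 2 of the 7 on III, 1 of the 12 on I, 1 of the 36 on IV and 1 of the 40 on V. None of the 3 members on X had one. Those on II include sup-39 and mir-1831, which share a summit. The whole optimal list holds 69 peaks on I, 71 on II, 59 on III, 55 on IV, 111 on V and 88 on X. Over the whole genome 1.45% of annotated nuclear genes had an optimal peak within 500 bp. The share over all genes of each chromosome was not computed, so these small counts do not rank the chromosomes. Set beside other classes of small RNA genes, counted by the same rule and without a test, an optimal peak lay near 7.21% of the 111 members, 22.2% of the 18 sls-2 genes, 10.1% of the 346 snoRNA genes and 9.80% of the 612 tRNA genes. Counted on autosomes alone, which was added after the values were seen, it lay near 7.41% of 108 members, 22.2% of 18 sls-2 genes, 11.2% of 313 snoRNA genes and 5.95% of 336 tRNA genes, so the order of members and tRNA genes turned round. A pooled candidate lay near 74.8% of the members, 72.2% of the sls-2 genes, 79.8% of the snoRNA genes and 89.4% of the tRNA genes. The median strongest signal was 40.7 in the members, 67.3 in the sls-2 genes, 41.7 in the snoRNA genes and 48.1 in the tRNA genes. The upstream element stood at 43.2% of the members and at 66.7% of the sls-2 genes, against 10.7% of the snoRNA genes and 5.07% of the tRNA genes.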

How the data were processed

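Peak lists of SEA-2::GFP ChIP-seq in 2 biological replicates (1 group) were used. The authors deposited 8 lists on ce11: a ranked and a thresholded list per replicate, and 2 ranked lists, an optimal and a conservative list of the pooled replicates. Deposited values used are the signal of each peak, of unstated scale and normalization, and the -log10 q and -log10 IDR. The labels and files name no aligner or peak caller and give neither read depth nor the handling of reads at repeats, so counting precision is unknown. The 4 columns of compared lists' signals were not used. Every optimal peak met an IDR of 0.01 in the other pooled ranked list, 81415 candidates long, and every conservative peak in the longer one of 82563, while 70 candidates that met it are not in the optimal list and 63 not in the conservative list.

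Summits (1-based) were assigned to Ensembl release 115 genes within 500 bp, and summits within 200 bp of a stronger one were dropped for counts of distinct peaks. All 111 genes matched a RefSeq name by WormBase identifier, and these names are used because Ensembl gives several genes the same name. Ranks and percentiles are within each list. Families were joined from local alignments (biopython 1.88), and 31-base words were counted over the nuclear genome, both strands. No test was made, as there is 1 group. The steps were tested on simulated summits and sequences. Genes with a peak, those with a conservative or replicate peak, the 8 other genes with the strongest candidates and those nearest to the distance limit are named by rule; F07C6.5, R07E5.16, Y9C9A.111, the K09B11 and T27E4 genes, smy-1 and C27H5.11's signal were added after values were seen. Members, lists and motifs were chosen with earlier results of these data known. Alternatives were other lists, single replicates, distances, peak overlap and nearest-gene assignment. Python 3.11.15, numpy 2.4.6, pandas 2.3.3, scipy 1.17.1 and matplotlib 3.10.9 were used. Some gene sequences are not reported here.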

Additional observations from a re-analysis of the deposited data

Results flagged for a closer look

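The candidates at sls-1.5 (pooled signal 110.8, rank 161) and sls-1.9 (95.5, rank 267) are picked out because they met the IDR threshold in both pooled ranked lists and are in no thresholded list, so the counts of genes with a peak leave them out. No control sample was analysed here.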

How the results depend on the processing

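Of the 9 alternatives for the number of genes with a peak, 7 gave 6 to 9 genes, within 1.5 times the 8 reported, and the single-replicate lists gave 1 gene without replicate 1 and 3 without replicate 2. The number of distinct summits near members, 7, was 5 to 8 under 7 alternatives, and 1 without replicate 1 and 3 without replicate 2. The number of members with a candidate, 83, was 69 to 94 under 5 alternatives. The median percentile of the strongest candidate, 85.1, was 88.1 in the other pooled ranked list, 83.0 without replicate 1 and 84.7 without replicate 2. The median summit position, 92 bp from the start, was 52.5 bp in the conservative list and 92 bp with every summit as deposited. The thresholded lists of single replicates are shorter than the pooled lists by construction. No paired analysis was possible because the 2 replicates belong to 1 group. Read depth is unknown, so a gene with no candidate is not shown to be unbound.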
